A study of Bos taurus with 29 samples.

Results

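The complement genes C3, C1R, C1S, CFB, CFD, CD46, CD55, CD59 and SERPING1 were followed by name through a table of read counts from bovine corpus luteum. Of these 9 genes, 8 had a row under their symbol among the 19112 genes of the table, and all 8 passed the filter on low counts that left 18939 genes to test. C1R was not analysed here. The corpus luteum samples came from a slaughterhouse source and fall into 4 groups of 3 libraries. The groups carry the labels CM_EE_IVF, CM_EE_AI, CM_EE and NC and are written here as CL-CM-EE-IVF, CL-CM-EE-AI, CL-CM-EE and CL-NC. EE stands for endometrial explants, and these were cultured with a single day 7 embryo made in vitro (IVF), with a single day 7 embryo made in vivo (AI) or with no embryo. CM is read as medium conditioned by those explants and NC as the control, which the labels do not spell out. The labels give no age, breed or cycle stage for the corpora lutea. Every group has 3 libraries, numbered R2, R4 and R5, and the labels do not say whether a number marks an animal, a culture or a run.

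Complement is a set of plasma and cell surface proteins that tags particles for uptake and can open pores in membranes. The classical pathway starts when C1q engages the proteases C1r and C1s, the lectin pathway uses related proteases, and the alternative pathway amplifies deposited C3 through factor B and factor D. All routes meet at C3 and lead to the terminal pore. Host cells hold the cascade back with soluble inhibitors, among them C1 inhibitor, and with the surface proteins CD46, CD55 and CD59. The corpus luteum is the transient gland that forms from the ovulated follicle, makes progesterone, and regresses with an influx of immune cells when no pregnancy is recognised.

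The 12 libraries held between 16536797 and 25747637 counts. Rows of mitochondrially encoded genes and ribosomal RNA took 47.0% to 67.4% of them, with 47.0% to 50.9% in R4, 52.3% to 58.3% in R2 and 56.9% to 67.4% in R5. Levels are given as CPM, read counts scaled to a common library total, after normalising the libraries by the trimmed mean of M values (TMM). They are not divided by gene length, so levels of different genes are not compared. In bulk tissue, fewer cells of a type and less RNA per cell cannot be told apart. Where nothing says that the libraries of a group came from separate animals or cultures, a p-value measures the spread between these libraries, which may be technical.

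C1S, the serine protease of the C1 complex that cleaves C4 and C2, passed the test between R numbers given further on and none between groups. In R2, R4 and R5 it stood at 22.3, 73.5 and 45.9 CPM for CL-CM-EE-IVF, at 16.4, 139 and 42.8 CPM for CL-CM-EE-AI, at 14.6, 43.2 and 23.6 CPM for CL-CM-EE, and at 18.9, 41.8 and 38.7 CPM for CL-NC. The R2 library was the lowest and the R4 library the highest of every group, and the ranges of all groups overlapped. CL-CM-EE-AI had a mean of 66.0 ± 64.5 CPM against 27.1 ± 14.6 CPM for CL-CM-EE (SD, n = 3 each), a log2 fold change of 1.28 (95% interval -0.21 to 2.77). This difference did not pass the test (edgeR quasi-likelihood, unadjusted p = 0.0852, adjusted p = 1.00). It was positive within every number, at 0.17 in R2, 1.68 in R4 and 0.85 in R5 on the log2 scale. Without the R4 library of CL-CM-EE-AI the fitted log2 fold change was 0.12, and that over CL-NC was -0.16 in place of 0.99. These fits have no block for the R number and kept R4 of the other group, its highest library. They therefore set unlike numbers against each other, and the 0.12 is below both the R2 and the R5 difference.

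C3 is the central component, cleaved by the convertases of all pathways. It was at 1.87, 2.02 and 3.21 CPM in R2, R4 and R5 of CL-CM-EE-IVF, at 2.74, 2.26 and 3.10 CPM for CL-CM-EE-AI, at 2.74, 4.66 and 1.76 CPM for CL-CM-EE, and at 1.605, 5.84 and 2.67 CPM for CL-NC. The counts behind these levels ran between 32 and 127 reads. The CL-NC library of R4 was the highest of the 12 and the CL-NC library of R2 the lowest, so CL-NC alone spans the whole range of C3. Ordered by their means, the groups stood at 2.37 ± 0.74 CPM for CL-CM-EE-IVF, 2.70 ± 0.42 CPM for CL-CM-EE-AI, 3.05 ± 1.48 CPM for CL-CM-EE and 3.37 ± 2.20 CPM for CL-NC (SD, n = 3 each), and no neighbours in that order differed beyond their spread. The log2 fold change of CL-CM-EE-IVF over CL-NC was -0.51 (95% interval -1.62 to 0.60), and it was 0.15 without the R4 library of CL-NC.

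Factor B (CFB) supplies the protease of the alternative pathway convertase. It was close to the lower limit of what these libraries count, with 4 to 35 reads. The levels in R2, R4 and R5 were 0.552, 0.606 and 0.856 CPM for CL-CM-EE-IVF, 0.763, 0.226 and 0.954 CPM for CL-CM-EE-AI, 0.548, 0.505 and 1.54 CPM for CL-CM-EE, and 0.752, 0.828 and 0.889 CPM for CL-NC. R5 was the highest number in every group. The 6 intervals of its log2 fold changes all spanned 0, with bounds as low as -1.90 for CL-CM-EE-AI over CL-CM-EE and as high as 1.56 for CL-CM-EE over CL-NC.

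Factor D (CFD, adipsin) cleaves factor B once it is bound to C3b and is known as a product of fat cells. It was at 0.127, 1.09 and 0.942 CPM in R2, R4 and R5 of CL-CM-EE-IVF, at 0.897, 0.9625 and 1.77 CPM for CL-CM-EE-AI, at 0.398, 1.91 and 1.49 CPM for CL-CM-EE, and at 1.05, 2.30 and 2.61 CPM for CL-NC. CL-NC was the highest group within each of the 3 numbers, although the ranges over the numbers overlapped. The mean was 0.720 ± 0.518 CPM for CL-CM-EE-IVF against 1.99 ± 0.83 CPM for CL-NC (SD, n = 3 each). The log2 fold change was -1.46 (95% interval -3.13 to 0.21), with an unadjusted p of 0.0815 and an adjusted p of 1.00 (edgeR), the lowest unadjusted p of any member in any group comparison. Within numbers the difference on the log2 scale was -2.37 in R2, -1.02 in R4 and -1.39 in R5. The reads behind these values were 3 to 27 in CL-CM-EE-IVF and 21 to 50 in CL-NC. Adipocyte markers were low as well, with a row for 6 of 8 listed genes. Their sum was 3.44 to 8.56 CPM for CL-CM-EE-IVF and 5.92 to 11.8 CPM for CL-NC. LIPE was at 1.66 to 6.90 CPM over the 12 libraries, and no other gene of the list was above 2.66 CPM. LEP was at 0 in 3 of the 12 libraries and ADIPOQ at 0 in 1. Whether these markers have a part in the values of CFD was not tested.

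SERPING1 encodes C1 inhibitor, the serpin that inactivates C1r, C1s and the lectin pathway proteases. Its levels in R2, R4 and R5 were 11.5, 18.9 and 12.6 CPM for CL-CM-EE-IVF, 7.58, 11.3 and 15.8 CPM for CL-CM-EE-AI, 7.87, 10.05 and 12.7 CPM for CL-CM-EE, and 5.62, 10.1 and 14.2 CPM for CL-NC. The R2 library was the lowest of every group, and the R5 library was the highest in 3 of the 4 groups, with R4 highest in CL-CM-EE-IVF. The mean was 14.3 ± 4.0 CPM for CL-CM-EE-IVF against 9.99 ± 4.30 CPM for CL-NC (SD, n = 3 each), a log2 fold change of 0.52 (95% interval -0.32 to 1.36). The difference was 1.02 in R2, 0.90 in R4 and -0.17 in R5 on the log2 scale, and it did not pass the test (edgeR, unadjusted p = 0.201, adjusted p = 1.00).

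CD46, membrane cofactor protein, lets factor I cut C3b and C4b on the cell surface, and in cattle it is also known as a receptor of bovine viral diarrhoea virus. It stood at 368, 292 and 139 CPM in R2, R4 and R5 of CL-CM-EE-IVF, at 351, 437 and 121 CPM for CL-CM-EE-AI, at 632, 565 and 120.2 CPM for CL-CM-EE, and at 391, 527 and 190.45 CPM for CL-NC. The R5 library was the lowest of every group. With 2532 to 12691 reads, counting error was small against the spread between libraries. The group means were 266 ± 117 CPM for CL-CM-EE-IVF, 303 ± 163 CPM for CL-CM-EE-AI, 439 ± 278 CPM for CL-CM-EE and 369 ± 169 CPM for CL-NC (SD, n = 3 each), and no 2 of them differed beyond their spread. CL-CM-EE-IVF over CL-CM-EE gave the log2 fold change of greatest size, -0.72 (95% interval -2.10 to 0.65).

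CD55, decay accelerating factor, takes the C3 and C5 convertases apart. In R2, R4 and R5 it was at 10.4, 20.3 and 10.9 CPM for CL-CM-EE-IVF, at 7.18, 35.3 and 8.78 CPM for CL-CM-EE-AI, at 8.76, 17.3 and 7.996 CPM for CL-CM-EE, and at 10.3, 12.8 and 10.5 CPM for CL-NC. R4 was the highest number in every group, by a small margin in CL-NC and by a wide one in CL-CM-EE-AI. The log2 fold change of CL-CM-EE-AI over CL-NC was 0.61 (95% interval -0.58 to 1.80) with the R4 libraries at 1.46 and the R2 and R5 libraries at -0.52 and -0.26. Without the R4 library of CL-CM-EE-AI it was -0.49, in a fit with no block for the R number that kept R4 of CL-NC.

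CD59 blocks the terminal pore by binding the late components. Its levels in R2, R4 and R5 were 11.6, 16.7 and 14.0 CPM for CL-CM-EE-IVF, 10.4, 28.1 and 18.3 CPM for CL-CM-EE-AI, 7.87, 21.5 and 15.1 CPM for CL-CM-EE, and 10.3, 16.4 and 19.9 CPM for CL-NC. R2 was the lowest number in every group. CL-CM-EE-AI was above CL-CM-EE in all 3 numbers, by 0.39 in R2, 0.39 in R4 and 0.28 in R5 on the log2 scale, with a fitted log2 fold change of 0.35 (95% interval -0.57 to 1.27) that did not pass the test (edgeR, unadjusted p = 0.420, adjusted p = 1.00). The fit behind this interval has no block for the R number, so its width includes the spread between numbers. With the R number as a block the difference did not pass either. Together with C1S and CD55, CD59 had its highest level of all 12 libraries in R4 of CL-CM-EE-AI. That library had 858 genes at 0 counts, against 44 to 506 in the other libraries, and the highest sum of luteal steroidogenic markers, 5872 CPM. The part of this library's makeup in the 3 levels was not tested beyond the values without it.

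**Figure D1:**
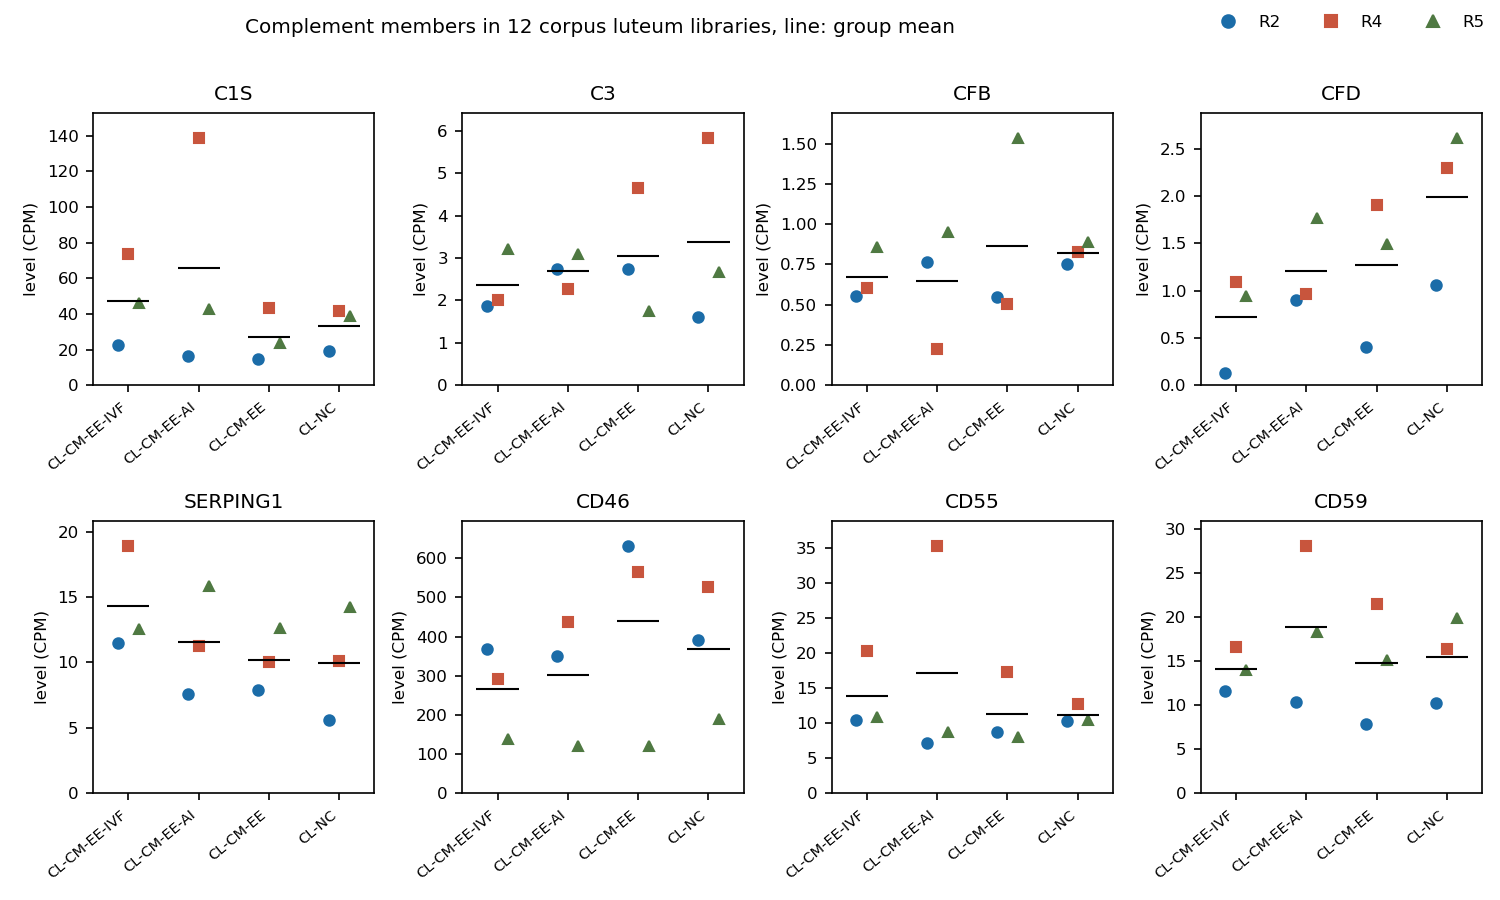
Levels in CPM of the 8 complement genes in each corpus luteum library by group (x axis), with the marker showing the R number and a line at the group mean (n = 3). Within every group C1S is lowest in R2 and highest in R4, CD46 is lowest in R5, CD55 is highest in R4 and CD59 is lowest in R2.

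The 6 comparisons between groups called no member. In CL-CM-EE-IVF over CL-NC, 0 of 8 members and 0 of 18939 genes (0%) passed an adjusted p of 0.05, with 0 members and 281 genes at an unadjusted p under 0.05 (edgeR). In CL-CM-EE-AI over CL-NC it was 0 of 8 members and 0% of all genes, with 213 genes at the unadjusted threshold. For CL-CM-EE over CL-NC the values were 0 of 8 members, 0% of all genes and 142 genes unadjusted. Comparing the conditioned groups with each other, 0 of 8 members and 0% of genes passed in CL-CM-EE-IVF over CL-CM-EE (285 genes unadjusted), 0 of 8 and 0% in CL-CM-EE-AI over CL-CM-EE (242 genes unadjusted), and 0 of 8 and 0% in CL-CM-EE-IVF over CL-CM-EE-AI (127 genes unadjusted). No member was under an unadjusted p of 0.05 in any of the 6, and DESeq2 also called 0 genes in each. The share of all genes under that unadjusted threshold was 0.671% to 1.5%, below the 5% expected if no gene differed (edgeR). Neither fit has a block for the R number. A background of 0% leaves the members' count of 0 without a reading of its own.

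In each comparison the members' log2 fold changes had both signs, and none passed the test. Relative to CL-NC, 3 of 8 members had a log2 fold change above 0 in CL-CM-EE-IVF, with a median of -0.21 against -0.04 over all genes tested. It was 4 of 8 in CL-CM-EE-AI, with a median of -0.04 against 0.03, and 4 of 8 in CL-CM-EE, with a median of -0.03 against -0.03. These 3 comparisons share the CL-NC libraries. Relative to CL-CM-EE, 3 of 8 were above 0 in CL-CM-EE-IVF (median -0.22 against -0.02) and 4 of 8 in CL-CM-EE-AI (median 0.06 against 0.06), and 2 of 8 were above 0 in CL-CM-EE-IVF over CL-CM-EE-AI (median -0.25 against -0.07). The fit's precision sets what could be seen: over all genes, the standard error of the log2 fold changes had a median of 0.50 in each comparison, and the biological coefficient of variation was 0.519, or 0.389 with the R number as a block.

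**Figure D2:**
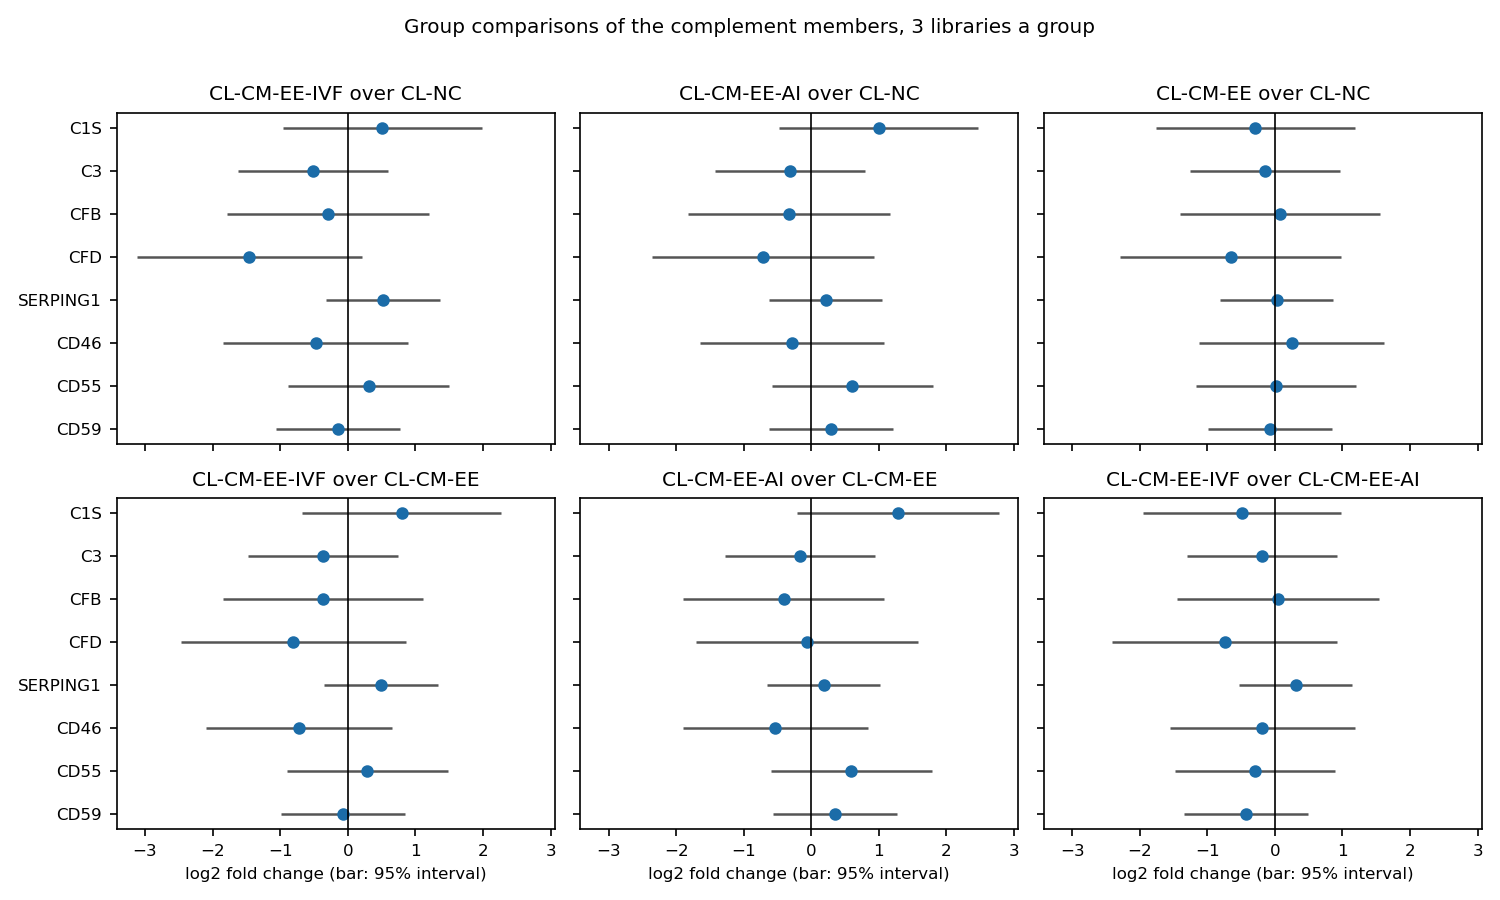
Log2 fold changes of the 8 complement genes (points) with 95% intervals of the edgeR fit (bars) in the 6 comparisons between groups, 3 libraries a group. Every interval spans 0, and the points furthest from it are CFD in CL-CM-EE-IVF over CL-NC at -1.46 and C1S in CL-CM-EE-AI over CL-CM-EE at 1.28.

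Most members differed between the numbers R2, R4 and R5. In a model of group and R number, 5 of 8 members passed an adjusted p of 0.05 between the numbers (edgeR quasi-likelihood), beside 5063 of 18939 genes, a background of 26.7%. The background rises with the level. It was 2.39% of the genes at a mean under 1 CPM, 33.1% of those at a mean of at least 1 CPM and 43.3% at a mean of at least 5 CPM. All 5 members that passed had means above 5 CPM. The 3 of 3 members with means under 5 CPM, C3, CFB and CFD, did not pass, at levels where the background is lower too. The libraries of R2 carry sample titles of another form than those of R4 and R5, and for R4 and R5 the labels list a pair of titles for each column. A difference of R2 from the other numbers therefore cannot be told apart from one of run or library preparation. The titles of R4 and R5 have the same form, and the labels do not say what sets these numbers apart.

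CD46 gave the lowest p of the members between numbers. It was at 435 ± 132 CPM in R2, 455 ± 121 CPM in R4 and 143 ± 33 CPM in R5 (SD, n = 4 each; edgeR, adjusted p = 0.000421). The 4 libraries of R5, at 120.2 to 190.45 CPM, lay below all 8 others, which ran between 292 and 632 CPM. C1S was at 18.1 ± 3.4 CPM in R2, 74.3 ± 45.5 CPM in R4 and 37.7 ± 9.9 CPM in R5 (SD, n = 4 each; edgeR, adjusted p = 0.000913). Its R2 libraries, at 14.6 to 22.3 CPM, did not overlap the others, and the log2 difference of R4 over R2 was 1.90. Both calls held without any 1 of the 12 libraries, with adjusted p up to 0.00414 for CD46 and 0.00415 for C1S (edgeR).

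The 3 other members that passed showed 2 patterns. CD55 was at 9.17 ± 1.53 CPM in R2, 21.4 ± 9.8 CPM in R4 and 9.54 ± 1.38 CPM in R5 (SD, n = 4 each; edgeR, adjusted p = 0.00898), so that R4 stood apart. CD59 was at 10.04 ± 1.57 CPM in R2, 20.7 ± 5.5 CPM in R4 and 16.8 ± 2.7 CPM in R5 (SD, n = 4 each; edgeR, adjusted p = 0.00876), and SERPING1 at 8.13 ± 2.44, 12.6 ± 4.3 and 13.8 ± 1.5 CPM (SD, n = 4 each; edgeR, adjusted p = 0.0361), so that R2 was lowest for both. The call of CD59 was lost without R2 of CL-CM-EE (adjusted p = 0.0703, edgeR) and without R2 of CL-CM-EE-AI (0.0680). SERPING1 was the least stable: its call was lost in 9 of the 12 fits that left out 1 library, with adjusted p up to 0.244 without R2 of CL-NC, and kept without R4 of CL-NC, R4 of CL-CM-EE-AI and R5 of CL-CM-EE-IVF. It was also lost with relative log expression size factors (0.0775) and with DESeq2 (0.0535).

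C3, CFB and CFD did not pass between numbers. CFD came closest, with 0.619 ± 0.431 CPM in R2, 1.57 ± 0.64 CPM in R4 and 1.70 ± 0.70 CPM in R5 (SD, n = 4 each; edgeR, adjusted p = 0.0648), and it passed without R4 of CL-CM-EE-AI (0.0373) and with DESeq2 (0.0463). C3 was at 2.24 ± 0.59, 3.70 ± 1.86 and 2.68 ± 0.66 CPM in R2, R4 and R5 (adjusted p = 0.434, edgeR), and CFB at 0.654 ± 0.120, 0.541 ± 0.249 and 1.06 ± 0.32 CPM (adjusted p = 0.393, edgeR). The reads behind these values ran from 32 to 127 for C3, from 4 to 35 for CFB and from 3 to 50 for CFD. The part of the number of reads in these results was not tested.

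The sum of squares of log2 CPM was also split by R number and group. The R number held 84.4% of the spread of CD46, 75.1% of CD59, 71.9% of C1S, 69.1% of CD55, 54.8% of SERPING1, 50.8% of CFD, 49.3% of CFB and 22.5% of C3. The median over all genes tested was 40.2%, and the numbers hold 18.2% of the degrees of freedom. The group held 34.3% of the spread of CFD and 22.6% of that of SERPING1, and 4.71% to 15.7% for the other members, against a median of 13.6% over all genes and 27.3% of the degrees of freedom. For C3, 71.3% of the spread belonged to neither.

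**Figure D3:**
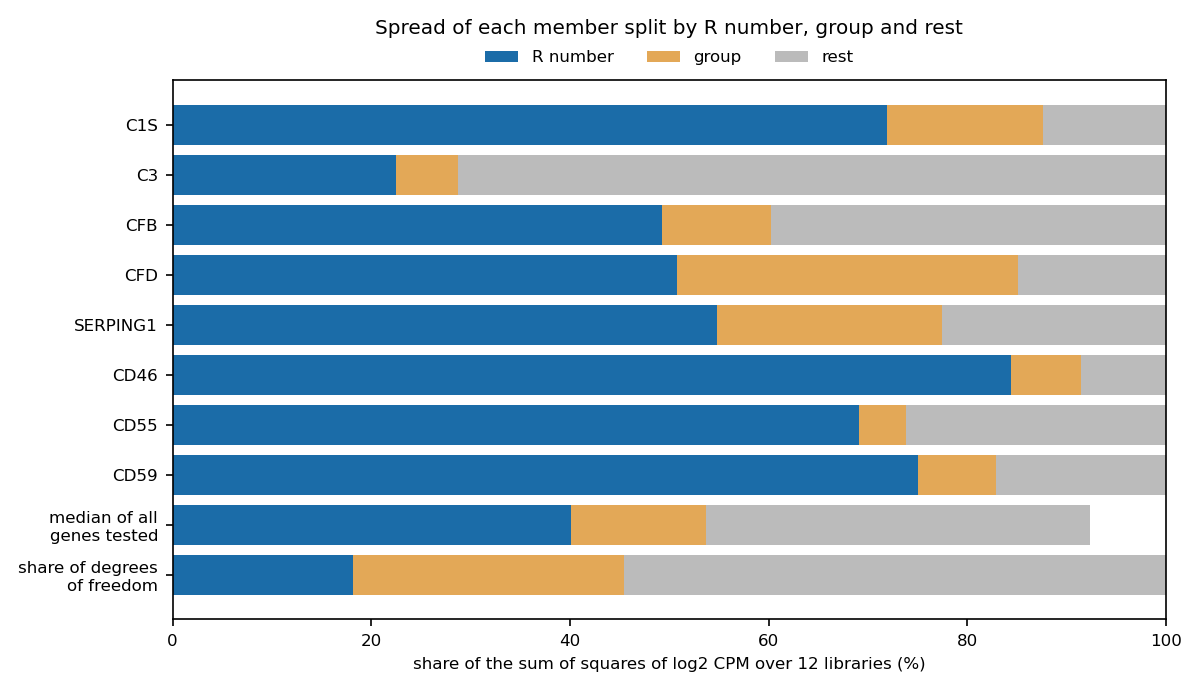
Share of the sum of squares of log2 CPM over the 12 libraries that goes with the R number, the group and neither, for each complement gene. The medians over all genes are taken share by share and so do not add up to the full width, and the last bar gives the shares of the degrees of freedom; the R number takes 84.4% for CD46 and 22.5% for C3.

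Some members ran together over the libraries and others ran apart. Across the 12 libraries, log2 CPM of C1S correlated with that of CD59 at r = 0.88 and with that of CD55 at r = 0.87, and CD55 with CD59 at r = 0.70. CD46 had r = -0.57 with SERPING1 and r = -0.67 with CFB, and CFB had r = -0.77 with CD55. C3 stayed at or below r = 0.46 with every other member. These values describe libraries that share numbers, groups and scaling, and carry no test.

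The other genes of the complement system were taken from lists by role. Of 57 listed genes, 43 had a row and 42 passed the filter, and 0 of 42 passed an adjusted p of 0.05 in any of the 6 group comparisons (edgeR). The genes with the lowest p were COLEC12, a scavenger receptor of the collectin family, and C4BPB, the beta chain of the C4b-binding protein. COLEC12 averaged 25.6 ± 7.3 CPM for CL-CM-EE-IVF and 15.4 ± 2.0 CPM for CL-CM-EE (SD, n = 3 each), a log2 fold change of 0.73 (95% interval 0.05 to 1.41; unadjusted p = 0.0367, adjusted p = 1.00, edgeR). Over CL-NC, at 15.9 ± 4.1 CPM, the log2 fold change of COLEC12 in CL-CM-EE-IVF was 0.69 (unadjusted p = 0.0465, adjusted p = 1.00, edgeR). C4BPB was at 0.206 ± 0.173 CPM for CL-CM-EE-IVF against 0.993 ± 0.665 CPM for CL-CM-EE (SD, n = 3 each), a log2 fold change of -2.24 (unadjusted p = 0.0352, adjusted p = 1.00, edgeR) between levels of few reads. The R5 library of CL-CM-EE was at 1.76 CPM against 0.55 and 0.67 CPM in R2 and R4 of that group, and leaving out 1 library gave log2 values from -3.15 (without R4 of CL-CM-EE-IVF) to -1.57 (without R5 of CL-CM-EE). No other complement gene was under an unadjusted p of 0.05 in any of the 6.

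A further 5 genes come from the rule of the 2 lowest p per comparison, all with adjusted p = 1.00 (edgeR). In CL-CM-EE-AI over CL-CM-EE, properdin (CFP), which stabilises the alternative convertase, averaged 1.88 ± 0.65 CPM against 1.01 ± 0.51 CPM (SD, n = 3 each; log2 fold change 0.90). In CL-CM-EE-AI over CL-NC, CR2, a receptor for C3 fragments, had a log2 fold change of 0.95. The C1q chain gene C1QB had one of 0.69 in CL-CM-EE over CL-NC. CPN1, a subunit of the carboxypeptidase that inactivates anaphylatoxins, had one of -1.60 in CL-CM-EE-IVF over CL-NC. CPN1 had 1 read in R2 of CL-CM-EE-IVF and 72 reads in R4 of CL-NC. Leaving out 1 library gave -2.03 (without R4 of CL-CM-EE-IVF) to -1.05 (without R2 of CL-CM-EE-IVF) for it. CFHR5 was at 0.296 ± 0.226 CPM for CL-CM-EE-IVF against 0.0748 ± 0.1295 CPM for CL-CM-EE-AI (SD, n = 3 each). Reads that it shares with near-identical genes cannot be assigned with certainty.

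Between R numbers, 8 of the 42 other complement genes passed (edgeR, adjusted p under 0.05), next to the 26.7% of all genes. None of 7 recognition molecules passed. Of 6 proteases and convertase parts 2 did, MASP1 and C4A, both lowest in R2 and highest in R5. MASP1, a protease of the lectin pathway, was at 8.84 ± 2.62 CPM in R2, 24.3 ± 12.7 CPM in R4 and 63.2 ± 8.0 CPM in R5 (SD, n = 4 each; edgeR, adjusted p = 2.12e-05), the lowest p among all complement genes listed. C4A, a source of the C4b that C1s generates, was at 39.2 ± 10.003, 74.9 ± 28.8 and 106 ± 23 CPM (SD, n = 4 each; edgeR, adjusted p = 0.000372). C4 genes can occur as near-identical copies, and how the counting assigned reads among such copies is not stated in what was used here.

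The remaining lists gave 1 or 2 genes each. Of 6 terminal components, C7, which anchors the forming pore, passed at 21.1 ± 4.0 CPM in R2, 43.6 ± 15.4 CPM in R4 and 40.1 ± 5.8 CPM in R5 (SD, n = 4 each; edgeR, adjusted p = 0.00326). Of 9 soluble regulators 2 passed, among them clusterin (CLU), an inhibitor of the terminal complex, at 73.9 ± 11.8, 154 ± 30 and 154 ± 25 CPM (SD, n = 4 each; edgeR, adjusted p = 0.00206). C7 and CLU were lowest in R2, as C1S and CD59 were, and both, with MASP1 and C4A, passed without any 1 library.

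Among membrane regulators other than the members and among receptors, the calls were less stable. Thrombomodulin (THBD) was at 3.72 ± 0.87, 8.18 ± 1.97 and 6.72 ± 0.98 CPM in R2, R4 and R5 (SD, n = 4 each; edgeR, adjusted p = 0.0167). C1QBP, a mitochondrial protein that binds the heads of C1q, was at 17.2 ± 2.5, 16.3 ± 5.7 and 9.49 ± 1.25 CPM (SD, n = 4 each; edgeR, adjusted p = 0.0396), lowest in R5 as CD46 was. ITGB2, the shared beta chain of the complement receptor integrins of leukocytes, was at 2.78 ± 0.98, 2.77 ± 1.22 and 5.93 ± 0.46 CPM (SD, n = 4 each; edgeR, adjusted p = 0.0276), highest in R5. Leaving out 1 library ended the call of THBD in 4 of 12 fits (R2 of CL-NC, of CL-CM-EE and of CL-CM-EE-AI, and R5 of CL-CM-EE; adjusted p up to 0.111, edgeR), of C1QBP in 6 of 12 (R4 and R5 of CL-CM-EE, R5 of CL-CM-EE-AI and each library of CL-CM-EE-IVF; up to 0.166) and of ITGB2 in 7 of 12 (R2 and R5 of CL-NC, of CL-CM-EE and of CL-CM-EE-AI, and R5 of CL-CM-EE-IVF; up to 0.1797).

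**Figure D4:**
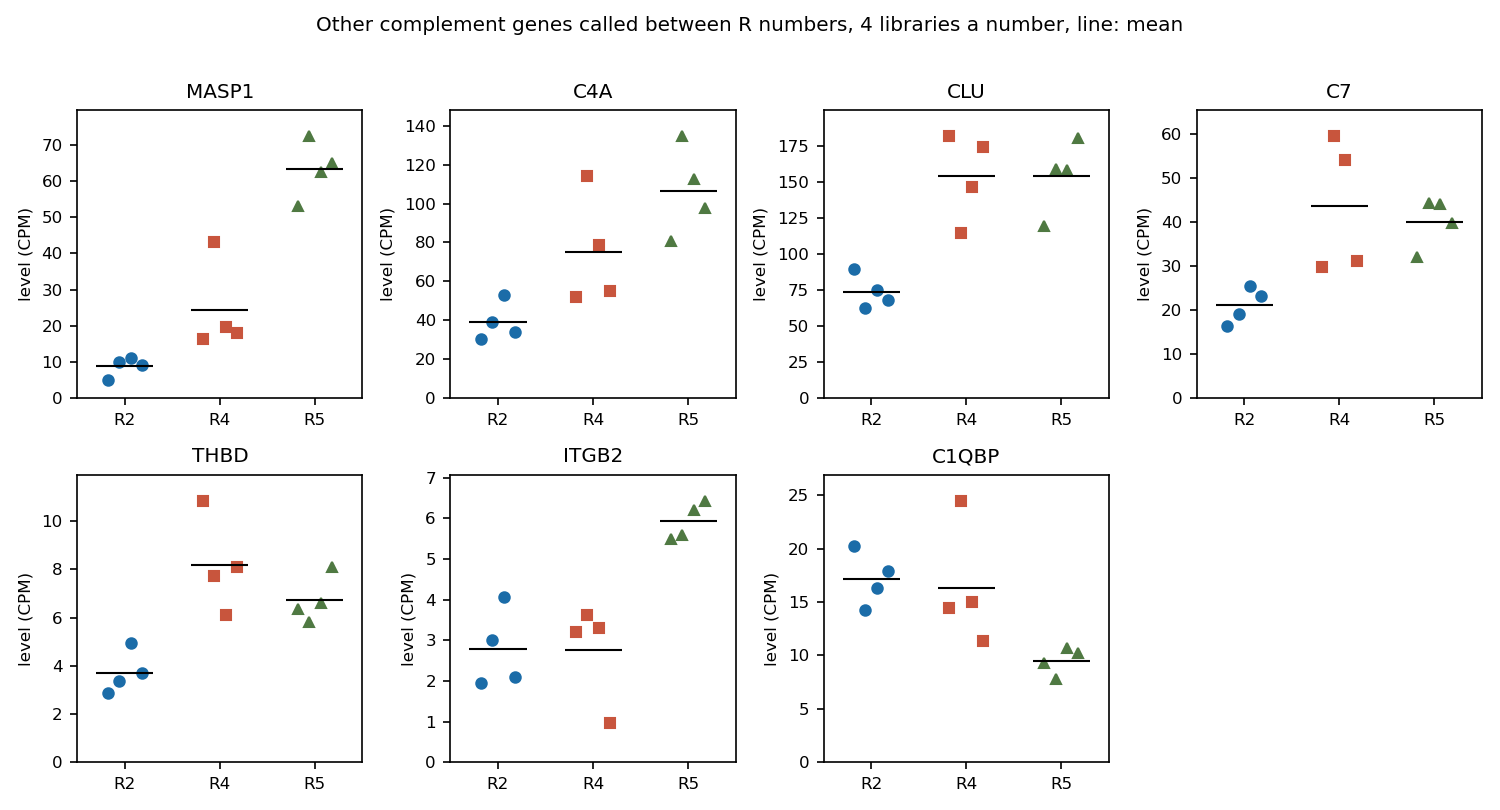
Levels in CPM of 7 other complement genes that passed between R numbers, 4 libraries a number with a line at their mean. MASP1 and C4A have their lowest mean in R2 and their highest in R5, CLU, C7 and THBD are lowest in R2, ITGB2 is highest in R5 and C1QBP lowest there.

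Markers of cell types moved with the numbers too. Luteal steroidogenic markers were present in every library: all 10 had a row, none was at 0, and their sum ran between 1378 and 5872 CPM. It was 1424 to 2530 CPM in R2, 1611 to 5872 CPM in R4 and 1378 to 2087 CPM in R5. By group it was 1855 to 3379 CPM for CL-CM-EE-IVF, 1538 to 5872 CPM for CL-CM-EE-AI, 1378 to 2834 CPM for CL-CM-EE and 1517 to 1810 CPM for CL-NC, with the highest value in the R4 library that also held the highest C1S, CD55 and CD59. The genes of this list did not move as 1. STAR, CYP11A1, HSD3B1, SCARB1, FDX1 and INHA had their highest value in R4. OXT was at 71.0 to 207 CPM in R2, 9.02 to 58.0 CPM in R4 and 5.62 to 9.21 CPM in R5, and HSD3B7 was also highest in R2. LHCGR was at 54.0 to 98.3 CPM in R2, 64.0 to 230 CPM in R4 and 171 to 298 CPM in R5, and NR5A1 also had its highest value in R5.

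Of the blood cell markers, HBA and HBA1 stood apart in R2. Of 8 listed genes 5 had a row and 4 were summed, and the sum was 33.6 to 61.1 CPM in R2, 3.23 to 5.94 CPM in R4 and 4.00 to 4.49 CPM in R5. In R2 nearly all of it was HBA and HBA1, near-identical copies with almost equal counts. The other summed genes did not follow. HBB was at 0.050 to 0.942 CPM in R2, 0.929 to 1.925 CPM in R4 and 0.382 to 1.73 CPM in R5. ALAS2 was at 0.0996 to 2.11 CPM in R2, 0.393 to 0.646 CPM in R4 and 0.0523 to 2.15 CPM in R5. Endothelial markers (10 of 10 with a row) summed to 1399 to 1751 CPM in R2, 812 to 1184 CPM in R4 and 907 to 1252 CPM in R5, and CLDN5 was at 28.4 to 54.4 CPM in R2 against at most 6.34 CPM elsewhere. Other genes of that list went the other way: TEK was at 27.5 to 33.6 CPM in R2, 36.9 to 50.6 CPM in R4 and 53.6 to 67.7 CPM in R5, and EMCN stayed at or below 142.6 CPM in R2 and at or above 151.8 CPM elsewhere. In every group the R2 library was the lowest for C1S, CFD, CD59 and SERPING1, and C3 and CD55 also had their lowest mean in R2. The sums of fibroblast and stroma markers (10 of 10) were 838 to 1296 CPM in R2, 437 to 1208 CPM in R4 and 532 to 653 CPM in R5, and those of smooth muscle and pericyte markers (8 of 8) were 353 to 490 CPM in R2, 389 to 688 CPM in R4 and 249 to 327 CPM in R5. Genes within these lists also differed in direction. RGS5 was at 216 to 306 CPM in R2 and 83.3 to 160 CPM in R5. ACTA2 was at 34.3 to 51.2 CPM in R2, 64.5 to 221 CPM in R4 and 33.0 to 45.1 CPM in R5. FBN1 was highest in R4, at 129 to 158 CPM, while DCN was at 45.6 to 68.3 CPM in R2 and 17.7 to 30.4 CPM in R5.

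Immune markers were at low levels. Of the macrophage markers 9 of 10 had a row, with TYROBP at 0 in 1 library. They summed to 25.1 to 32.3 CPM in R2, 24.9 to 53.3 CPM in R4 and 27.8 to 31.4 CPM in R5. Of this list only CSF1R passed between numbers (edgeR, adjusted p = 0.00898). It was at 2.09 to 3.56 CPM in R2, 4.59 to 9.20 CPM in R4 and 4.77 to 5.33 CPM in R5. CD14 was at 1.81 to 2.94 CPM in R2 and 0.527 to 1.48 CPM in R5. T cell markers (8 of 8) summed to 4.42 to 10.8 CPM in R2, 5.94 to 12.01 in R4 and 13.5 to 17.7 in R5. Only LCK of this list passed between numbers (edgeR, adjusted p = 0.0246). LCK was at 1.61 to 2.74 CPM in R2, 1.42 to 5.47 CPM in R4 and 5.33 to 6.97 CPM in R5. CD3E was at 0.449 to 1.59 CPM in R2, 0.276 to 0.9625 CPM in R4 and 1.46 to 2.24 CPM in R5 (edgeR, adjusted p = 0.168). Its R5 libraries lay above those of R4 and overlapped those of R2. CD3D, CD3G, CD2, CD5, CD8A and CD4 overlapped between numbers, with CD5 at 0.736 to 1.18 CPM in R4 and 0.143 to 0.771 CPM in R5. Adipocyte markers summed to 3.44 to 5.92 CPM in R2, 7.23 to 11.8 CPM in R4 and 8.21 to 10.9 CPM in R5. Of these, LIPE was at 1.66 to 3.64 CPM in R2, 4.16 to 6.90 CPM in R4 and 5.05 to 6.275 CPM in R5, while ADIPOQ and PLIN1 had their highest values, 1.204 and 1.354 CPM, in R2. Liver is the main source of plasma complement, and of the hepatocyte markers (3 of 8 with a row) ALB stayed at or below 1.47 CPM and AMBP was at 0 in 2 libraries, while APOA1 alone reached 76.9 to 648 CPM. Surface epithelium and mesothelium markers (7 of 8) summed to 40.7 to 54.0 CPM in R2, 50.8 to 120 CPM in R4 and 33.9 to 44.3 CPM in R5. KRT8 of this list reached 82.4 CPM in R4. MSLN was at 1.21 to 2.66 CPM in R2, 2.99 to 8.72 CPM in R4 and 0.523 to 1.43 CPM in R5. Both passed between numbers (edgeR, adjusted p = 0.00345 for KRT8 and 0.00493 for MSLN). WT1 was at 16.4 to 34.2 CPM and overlapped between numbers, and UPK3B had its highest value in R5. The part of these cell type markers, and of the mitochondrial and ribosomal share, in the differences between numbers was not tested.

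**Figure D5:**
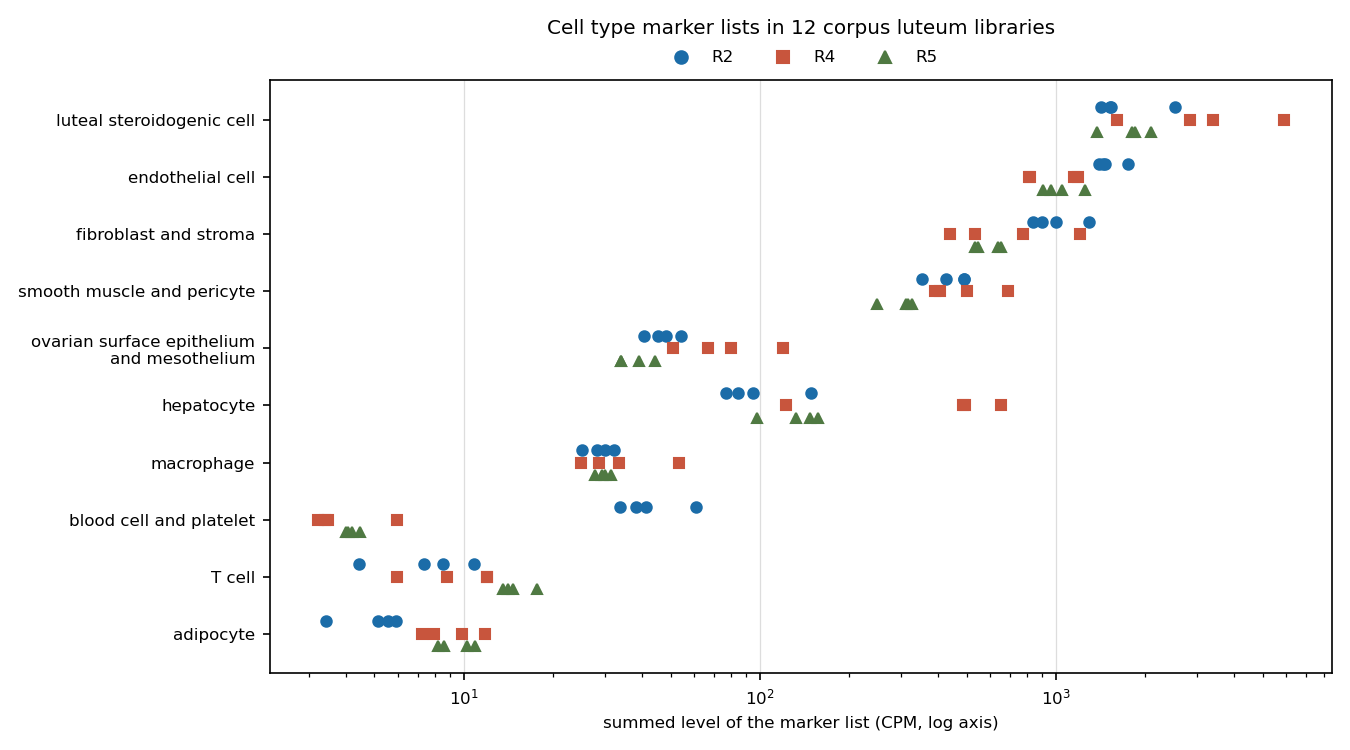
Summed level in CPM (log axis) of 10 cell type marker lists in each of the 12 libraries, with the marker showing the R number. For blood cell markers the R2 libraries lie at 33.6 to 61.1 CPM, nearly all of it HBA and HBA1. All other libraries lie at or below 5.94 CPM there, while luteal steroidogenic markers lie between 1378 and 5872 CPM.

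The genes whose log2 CPM ran most like each member over the 12 libraries are given as a description, among 13116 or 13117 genes with a symbol and a mean of at least 1 CPM. For C1S they were ADAT1 (Pearson r = 0.99), TMEM254 (0.98) and ZCCHC17 (0.98), for CD46 ITGA2 (0.99), MYO1E (0.99) and AMMECR1 (0.99), and for CD55 THAP5 (0.99) and ME1 (0.98). For CD59 they were HSPA2 (0.97), CHIC1 (0.95) and HSD17B11 (0.95), and for SERPING1 PAWR (0.93), MGRN1 (0.92) and APEH (0.92). For C3 they were EPHA1 (0.91) and MEIS2 (0.90), for CFB SLC39A11 (0.95), ACVR2B (0.94) and DTNB (0.93), and for CFD MBOAT1 (0.94), CPE (0.93) and FBXO47 (0.93). No member was among the 3 genes most like another. The 12 libraries share 3 R numbers and 4 groups, and the values carry no test.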

How the data were processed

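For the corpus luteum the authors deposited counts of reads by gene, 1 column for each group and R number. The deposited values were whole in all 12 columns, with no fractional expected counts among them. Tools named in the submitters' processing notes are featureCounts, STAR, Trim Galore, cutadapt and DESeq2. Their versions, the genome build, the annotation and the strand setting are not stated in what was used here. The labels list 20 corpus luteum samples for the 12 columns, and each column was used as 1 library. The endometrial tables were not used here.

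The lowest row sum was 36 counts, so the deposited table holds no rarer gene, and 17386 gene names (91.0%) match a current symbol of the reference. Genes were filtered with filterByExpr by group, scaled by TMM and tested with edgeR's quasi-likelihood F test in 1 model of 4 group means, with Benjamini-Hochberg adjustment over all 18939 genes at 0.05. The test between R numbers used a model of group and R number. Log2 CPM used a prior count of 2. Intervals are 95% intervals of the fit. Scripts were tested on simulated data. Within groups, 0 of 12 pairs of libraries were identical.

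R numbers paired libraries across groups (every same-number correlation of deviations over 0.1) in 3 of 6 comparisons: CL-CM-EE-AI against CL-NC (0.32 to 0.66) and CL-CM-EE (0.11 to 0.45), and CL-CM-EE-IVF against CL-CM-EE (0.36 to 0.60). The lowest value was 0.08 in CL-CM-EE against CL-NC, 0.09 in CL-CM-EE-IVF against CL-NC and 0.08 in CL-CM-EE-IVF against CL-CM-EE-AI.

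Members and lists were chosen with earlier results of these data known. Named are all members, other complement genes past the threshold in any test, the 2 with the lowest p per group comparison and the 5 between R numbers, and per member the 3 most correlated genes. A few genes that this rule names are not reported here. Alternatives were RLE size factors, no filter, tables without 39 mitochondrial and ribosomal RNA rows, DESeq2, only the compared groups, the replicate block and each library left out. Software was edgeR 4.0.16, DESeq2 1.42.0 and limma 3.58.1 in R 4.3.3, with figures from matplotlib 3.10.9 in Python 3.11.15.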

Additional observations from a re-analysis of the deposited data

How the results depend on the processing

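In each of the 6 group comparisons, the count of genes called was 0 and the count of members called was 0 under every alternative run. Of 359 fold changes of members and named complement genes recomputed under alternatives other than leaving out a library, 355 kept their direction and their side of the threshold and 4 reversed, all under the replicate block: CFB and CD55 in CL-CM-EE over CL-NC (log2 -0.11 and -0.11), CFD in CL-CM-EE-AI over CL-CM-EE (0.18) and CD59 in CL-CM-EE-IVF over CL-CM-EE (0.032). The block changed 0 calls of the group comparisons. Leaving out 1 library reversed 44 of 360 fold changes, none of which had passed the test. These fits have no block for the R number, so leaving out a library also set unlike numbers against each other. CD59 in CL-CM-EE-AI over CL-CM-EE reversed to -0.049 without R4 of CL-CM-EE-AI, although the difference was positive in all 3 numbers. The log2 ranges over these fits, over CL-NC, were in CL-CM-EE C3 -0.59 to 0.51, CFB -0.65 to 0.34, CD46 -0.17 to 0.67, CD55 -0.42 to 0.19, CD59 -0.43 to 0.21 and SERPING1 -0.23 to 0.33, in CL-CM-EE-AI C3 -0.64 to 0.34, C1S -0.16 to 1.41, CFB -0.72 to 0.060, CD46 -0.65 to 0.093, CD55 -0.49 to 0.92, CD59 -0.11 to 0.52 and SERPING1 -0.085 to 0.49, and in CL-CM-EE-IVF C3 -0.85 to 0.15, CD55 -0.075 to 0.48 and CD59 -0.35 to 0.019. Over CL-CM-EE they were in CL-CM-EE-AI C3 -0.46 to 0.27, CFB -0.79 to 0.28, CFD -0.49 to 0.35, CD55 -0.51 to 1.03, CD59 -0.049 to 0.72 and SERPING1 -0.11 to 0.35, and in CL-CM-EE-IVF C3 -0.67 to 0.074, CFB -0.63 to 0.32, CD55 -0.092 to 0.73 and CD59 -0.37 to 0.30. In CL-CM-EE-IVF over CL-CM-EE-AI they were C1S -0.95 to 0.68, CFB -0.35 to 0.42, CD46 -0.57 to 0.18 and CD55 -0.68 to 0.80. Between R numbers, leaving out 1 library gave 3 to 6 members called, with 3 without R2 of CL-CM-EE or R2 of CL-CM-EE-AI and 6 without R4 of CL-CM-EE-AI, and 3374 to 5141 genes, with 3374 without R5 of CL-CM-EE-AI. DESeq2 called 5997 genes and 5 members there. The causes were not tested. CFB and CFD rest on few reads in some libraries, 4 and 3 at the lowest, which limits what their fold changes can show.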
